A study of Mus musculus with 6 samples.

Results

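Chac1, Jund and Socs3 are genes that injured neurons and their surrounding glia are known to regulate, and their RNA was measured here in the peripheral ventrotemporal (VT) retina of mice 1 day after optic nerve crush. They were taken by name from the deposited table, so that the results concern 3 of its 701 genes. The table holds only genes that the authors had selected at p below 0.05 in their own comparison of these 6 samples, and all 3 genes had therefore already passed a test of the genotypes. The samples came from wild-type C57BL/6J mice (WT, 3 samples) and from Slc6a4-/- mice (3 samples), a constitutive mutant line without the serotonin transporter SERT. The labels give the strain of both as C57BL/6. The mutants were a separately purchased line, and the study does not say that they were littermates of the WT mice. Genotype here thus stands for the line as a whole, and the part of other genetic differences between the lines was not tested. All mice were 8 weeks old (postnatal day 56), all had the left optic nerve crushed for 5 s, and all injured retinae were collected 24 hours later. Each sample held the peripheral VT retinae of 3 mice, and there was no uninjured group, so that the values compare injured retinae with injured retinae and give no response to injury.

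The crush cuts off retinal ganglion cells (RGCs) from their targets, and the stress signals that follow run along several known routes. Chac1 encodes an enzyme that degrades glutathione and is a classical target of the integrated stress response, in which phosphorylation of the initiation factor eIF2 raises translation of the transcription factor ATF4. JunD is a subunit of the AP-1 transcription factor, the family that includes Jun and Fos and is driven by JNK and other stress kinases. Socs3 is induced by STAT3 downstream of gp130 cytokine receptors, inhibits the JAK kinases in a feedback loop, and is known as a brake on the regrowth of crushed optic axons.

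Library totals, recovered as described under the processing of the data, ran from 75.3 to 79.7 M reads in WT and from 81.2 to 93.9 M reads in Slc6a4-/-, and counts were scaled to their geometric mean. These totals are higher than the number of reads per sample in the study's methods. Whether both reads of a pair were counted was not established here. The targeted gene Slc6a4 had scaled counts of 1669, 1452 and 1626 in the WT samples and 0, 0 and 3 reads in the Slc6a4-/- samples, at least 517-fold lower when each library is given a floor of 3 reads. The Slc6a4 counts thus matched the genotype on the label of every sample. Among the 701 genes, limma with Benjamini-Hochberg adjustment called 9 at an adjusted p below 0.05 (1.28%), 3 of them lower in Slc6a4-/- (0.428%), and 322 at an unadjusted p below 0.05 (45.9%). The samples of the genotypes did not overlap in 411 genes (58.6%), with 169 of the table lying lower in every Slc6a4-/- sample (24.1%). The mean was lower in Slc6a4-/- for 304 genes (43.4%), and the median log2 fold change of the table was 0.30.

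All 3 genes had lower means in Slc6a4-/- retina, by 30.0% for Chac1, 32.6% for Jund and 29.9% for Socs3, but the samples behind these similar means differed. Jund was lower in each Slc6a4-/- sample than in each WT sample and varied widely within Slc6a4-/-. Socs3 differed mainly through 1 high WT sample, and the Chac1 samples of the genotypes overlapped. None of the 3 passed an adjusted p of 0.05 in limma, where 1, Jund, had an unadjusted p below 0.05, and the same held with voom weights. In pieces of whole retina, fewer cells of a type and less RNA per cell cannot be told apart.

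Chac1 (ENSMUSG00000027313) lies on the plus strand at chr2:119351229-119354381 of GRCm38. The stretch before its annotated gene start is shown because it holds a match to the composite C/EBP-ATF element, the kind of site through which ATF4 acts on its target genes. The motif was searched as TGATGNAA on both strands, and in the sequence below its match, on the opposite strand, is in capitals. The sequence is that of RefSeq on GRCm38.p6, plus strand, from chr2:119350992-119351228.
Chac1 upstream region: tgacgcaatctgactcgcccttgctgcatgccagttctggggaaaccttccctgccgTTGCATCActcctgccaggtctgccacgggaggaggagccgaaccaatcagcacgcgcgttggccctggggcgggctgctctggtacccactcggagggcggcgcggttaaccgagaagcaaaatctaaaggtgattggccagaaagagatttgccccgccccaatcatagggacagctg
The match lies between 193 and 186 bases before the RefSeq start of the gene. Of 32851 promoter windows of the same kind, from 250 bases before to 50 bases after a start, 3.97% held the motif, and a match is a description of the letters and not a site shown to be bound.

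Scaled to the library totals, Chac1 had 112.3, 147.6 and 196.5 counts in the successive WT samples. It had 57.3, 121.2 and 140.7 in the successive Slc6a4-/- samples. Only Slc6a4-/- sample 1 lay below all WT samples, at 37.7% of the WT mean, while the other Slc6a4-/- samples lay above the lowest WT sample. Mean scaled counts of Chac1 were 152.1 ± 42.3 for WT against 106.4 ± 43.6 for Slc6a4-/- (SD, n = 3 each). The log2 fold change was -0.57 ± 0.38 (SE), with a 95% confidence interval from -1.49 to 0.34 and an adjusted p of 0.195 in limma. An exact two-sided permutation test of the scaled counts gave p = 0.4, where the smallest p that 3 against 3 samples allow is 0.1. By its limma p Chac1 stood at place 654 of the 701 genes. Without Slc6a4-/- sample 1 the log2 fold change was -0.18 (adjusted p = 0.565), and over all alternatives the adjusted p ran from 0.105 to 0.565.

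Jund (ENSMUSG00000071076) is a gene of a single exon on the plus strand at chr8:70698949-70700616. The antisense gene Gm11175 lies within it on the minus strand, from 70699162 to 70700080. The libraries kept strand, but the strand setting of the counting is not given in the sources used here, so that reads of the antisense gene may be among the Jund counts.

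WT samples 1 to 3 held 921.2, 904.0 and 784.8 scaled counts of Jund, and Slc6a4-/- samples 1 to 3 held 404.8, 587.6 and 766.8. The WT samples were close to each other, and the Slc6a4-/- samples were spread from 46.5% of the WT mean in sample 1, through 67.5% in sample 2, to 88.1% in sample 3. The genotypes did not overlap, but the gap between the lowest WT and the highest Slc6a4-/- sample was 18.0 scaled counts, 2.29% of the WT value. The 95% Poisson intervals of these samples, 729.6 to 843.2 and 713.0 to 823.6, overlapped, and such intervals cover counting error only. They would be too narrow if both reads of a pair were counted.

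The Jund means were 870.0 ± 74.3 for WT against 586.4 ± 181.0 for Slc6a4-/- (SD, n = 3 each), and the coefficients of variation were 8.54% and 30.9%. The log2 fold change was -0.61 ± 0.23 (SE), with a 95% confidence interval from -1.16 to -0.07. In limma the p-value was 0.0331 before and 0.108 after adjustment, and the exact two-sided permutation test gave p = 0.1, the smallest it can give. Of the 3 genes, only Jund had a confidence interval without 0, in a table where 45.9% of genes had an unadjusted p below 0.05. Without Slc6a4-/- sample 1 the log2 fold change was -0.37 (adjusted p = 0.167), without Slc6a4-/- sample 3 it was -0.83 (adjusted p = 0.0909), and over all alternatives the adjusted p ran from 0.0741 to 0.218.

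Socs3 (ENSMUSG00000053113) lies on the minus strand at chr11:117966079-117970047. The motif of STAT factors, searched as TTCNNNGAA, occurred in its RefSeq promoter window and in 8.3% of all windows. It is shown with 9 bases on either side because Socs3 is a STAT3 target, with the match in capitals, on GRCm38.p6, minus strand, chr11:117969503-117969529.
Socs3 STAT match: aaaccagccTTCTTAGAAgggaggggg
The RefSeq start behind this window lies 681 bases inside the gene start of GENCODE M21, so that the match lies within the GENCODE gene.

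For Socs3, scaled counts of 243.2, 150.7 and 133.4 were found in the WT samples, in the order of their numbers. The Slc6a4-/- samples had 127.9, 116.6 and 125.4. WT sample 1 stood far above the other 5 samples, at 138.4% of the WT mean, and those 5 lay close together. The genotypes did not overlap, but the gap was 5.55 scaled counts, 4.16% of the lowest WT value, and the Poisson intervals of the samples on either side, 111.2 to 158.8 in WT sample 3 and 107.9 to 150.5 in Slc6a4-/- sample 1, overlapped.

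The Socs3 means were 175.8 ± 59.1 for WT against 123.3 ± 5.94 for Slc6a4-/- (SD, n = 3 each), and the coefficients of variation were 33.6% and 4.81%. The wider spread was thus in WT for Socs3 and in Slc6a4-/- for Jund, and these differences in spread were not tested. The log2 fold change of Socs3 was -0.46 ± 0.25 (SE), with a 95% confidence interval from -1.06 to 0.14 and an adjusted p of 0.135 in limma. The exact two-sided permutation test gave p = 0.1, the smallest it can give. Without WT sample 1 the log2 fold change was -0.20 (adjusted p = 0.344), and over all alternatives the adjusted p ran from 0.075 to 0.371.

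**Figure D1:**
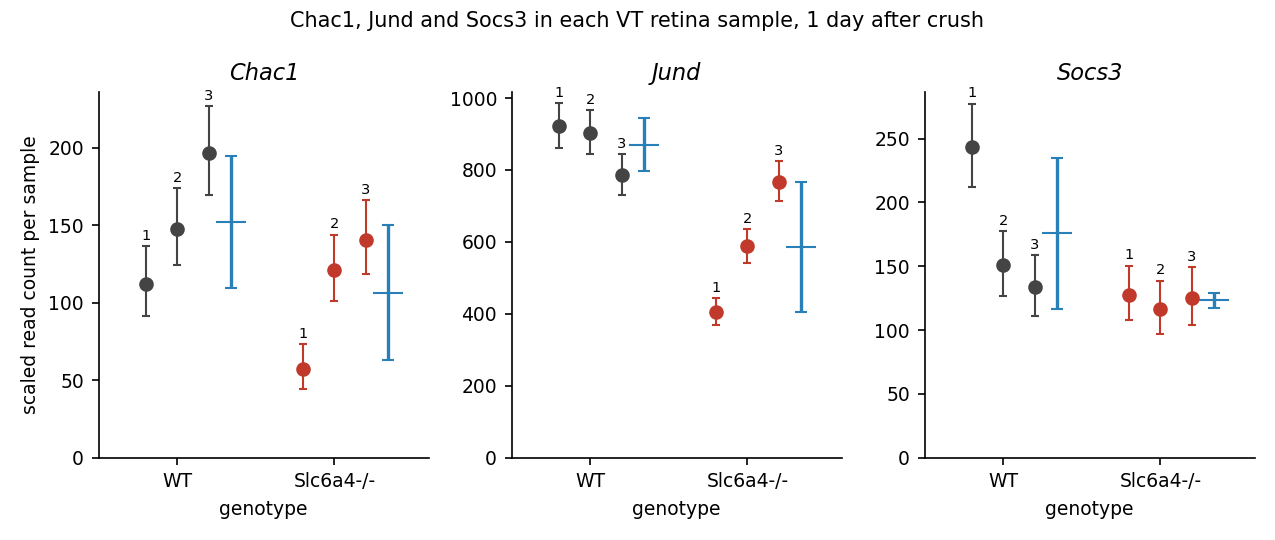
Scaled read counts (linear axes from 0) of Chac1, Jund and Socs3 in each sample, numbered 1 to 3 within a genotype; bars on the points are 95% Poisson intervals, and the blue lines beside them give the mean and SD of 3 samples. Chac1 overlaps between genotypes, Jund is lowest in Slc6a4-/- samples 1 and 2, and Socs3 is set apart by WT sample 1 at 243.2.

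The separation of Jund and of Socs3 depended on the scaling of the libraries. In the counts as deposited, Jund ran from 747 to 870 in WT and from 459 to 752 in Slc6a4-/-, and Socs3 from 127 to 221 in WT and from 123 to 145 in Slc6a4-/-, so that both overlapped. With scaling by the sum over the table or by the median of ratios, the genotypes of Jund and of Socs3 were separate and those of Chac1 overlapped. Centring on the median of ratios moved the median log2 fold change of the table by -0.16, and the values of Chac1, Jund and Socs3 with it, to -0.73, -0.77 and -0.62. Leaving the counts unscaled moved the table median by 0.18 and gave -0.40, -0.44 and -0.28.

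All 3 log2 fold changes were below 0 in each of the 16 fits, and none of the 3 genes passed an adjusted p of 0.05 in any. The unadjusted p was below 0.05 in 10 of the 16 fits for Jund, in 2 for Socs3 and in 1 for Chac1. Most fits share all or most of the samples and are not independent of each other.

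**Figure D2:**
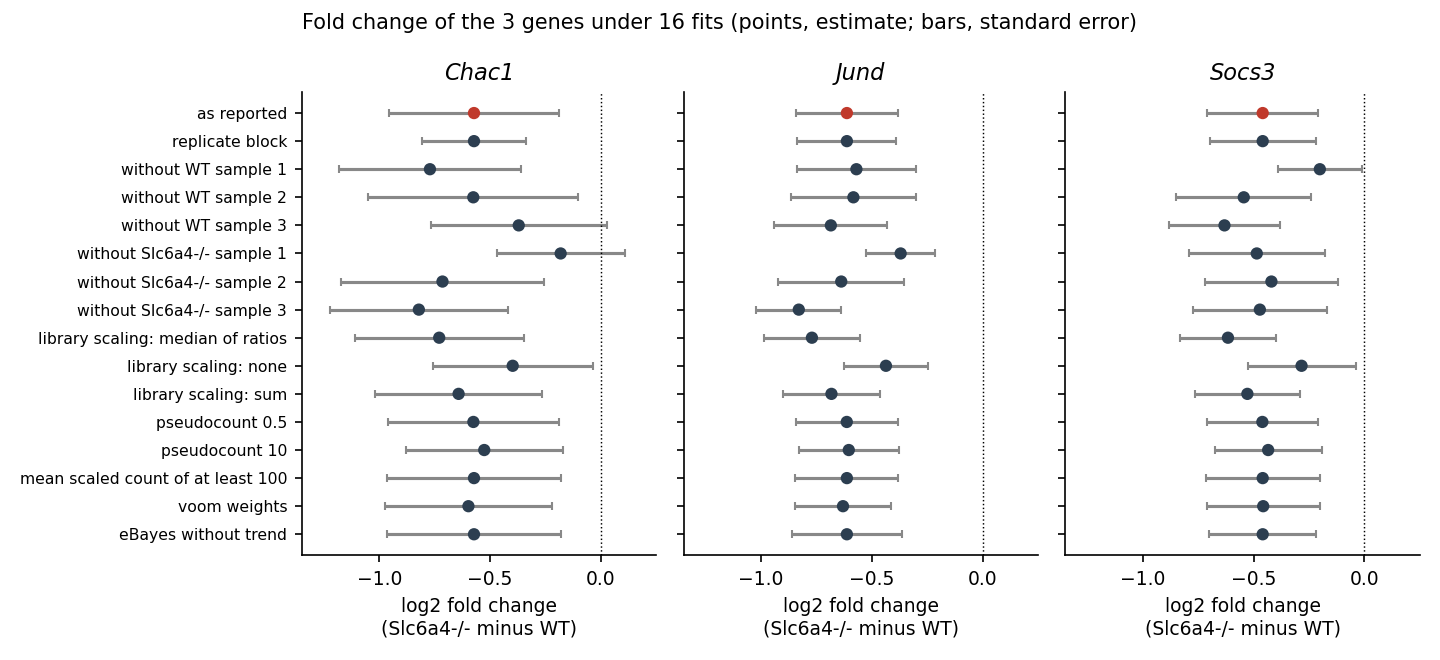
Log2 fold change (Slc6a4-/- minus WT, horizontal axis) of Chac1, Jund and Socs3 in 16 fits (vertical axis), with points for estimates, bars for standard errors and the reported fit in red. All estimates lie left of 0; Chac1 is nearest to 0 without Slc6a4-/- sample 1 (-0.18) and Socs3 without WT sample 1 (-0.20).

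Levels were compared between the genes per transcript length, as RPKM (reads scaled to transcript length and library total), with transcripts of 1637 bases for Chac1, 1668 for Jund and 2552 for Socs3. Jund had the highest level in all 6 samples, with a mean of 6.30 ± 0.538 RPKM in WT and 4.24 ± 1.31 in Slc6a4-/-. Chac1 had 1.12 ± 0.312 RPKM in WT and 0.785 ± 0.322 in Slc6a4-/-, and Socs3 had 0.832 ± 0.279 and 0.583 ± 0.0281 (SD, n = 3 each). The order of Chac1 and Socs3 changed between samples. Socs3 was the higher of them in WT sample 1 (1.15 against 0.828 RPKM) and in Slc6a4-/- sample 1 (0.605 against 0.423 RPKM), and Chac1 was the higher in the other 4 samples. These neighbours in the order did not differ beyond their spread.

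Each of the 3 genes ordered the samples in its own way. Pearson's r of log2 scaled counts over the 6 samples was 0.78 for Chac1 with Jund (Spearman's rho = 0.37), 0.56 for Jund with Socs3 (rho = 0.83) and -0.00 for Chac1 with Socs3 (rho = 0.09). Among the 700 other genes of the table ordered by likeness, Jund stood at place 86 for Chac1, Socs3 at place 236 for Jund, and Socs3 at place 322 for Chac1. Such values describe 6 points that share libraries and a split by genotype, and no test was made on them.

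The 5 genes of the table closest to Chac1 by Pearson's r over the 6 samples were Adrb1 (r = 0.995), a beta-adrenergic receptor, Trim66 (0.989), the histone deacetylase gene Hdac5 (0.980), the small GTPase gene Rhob (0.968) and the G protein subunit gene Gnaz (0.965). Adrb1 ordered the 6 samples exactly as Chac1 did, with scaled counts of 832.1, 958.0 and 1034 in WT and 628.0, 839.3 and 902.4 in Slc6a4-/-. Its log2 fold change was -0.26 against -0.57 for Chac1, so that it moved in the same order over a smaller range. In both genes Slc6a4-/- sample 1 was lowest and WT sample 3 highest.

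Closest to Jund were H2ac19 (r = 0.996), a histone H2A gene, Abhd17a (0.986), a depalmitoylating enzyme, Lrrc4b (0.982), a synaptic adhesion protein, Map1s (0.982), a microtubule-associated protein, and Dohh (0.981), an enzyme of hypusine synthesis. H2ac19 had scaled counts of 1147, 1181 and 867.8 in WT and 352.8, 561.7 and 867.8 in Slc6a4-/-, so that Slc6a4-/- sample 3 again stood near WT sample 3. Counts of histone genes are uncertain, since near-identical copies can share reads. All 5 had a GC content of 62.1% or more over the longest transcript, beside a table median of 50.9%.

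Closest to Socs3 was Cebpd (r = 0.969), which encodes C/EBP delta, like Socs3 a known target of STAT3. Its scaled counts were 693.4, 401.1 and 401.3 in WT and 327.2, 328.5 and 383.4 in Slc6a4-/-, and WT sample 1 again stood above the rest. The others were H3c15 (0.941), a histone H3 gene, Krt6a (0.893), a keratin, Hspa1a (0.879), an inducible heat shock protein, and Nckap5 (0.875). Krt6a had 57.2 scaled counts in WT sample 1 and from 4.08 to 13.2 in the other 5, and H3c15, Krt6a and Hspa1a belong to families whose near-identical members can share reads.

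The integrated stress response, of which Chac1 is an end product, was followed with a list of 40 genes, of which the table held 10. Of these 10 genes, 8 had lower means in Slc6a4-/-, and 6 of them were lower in each Slc6a4-/- sample than in each WT sample, beside 24.1% of the table. The median log2 fold change was -0.32, and -0.30 for the 9 genes other than Chac1, beside 0.30 for the table. None of the 10 passed an adjusted p of 0.05 in limma, and 3 had an unadjusted p below 0.05, 2 lower and 1 higher. In the table, 45.9% of genes had such a p, 15.0% lower and 31.0% higher. That count was also 3 with voom weights, 2 without WT sample 2 or 3, 5 without Slc6a4-/- sample 3, 2 without library scaling, and 6 with either other scaling. Chac1 had the largest fold change of the 8 lower genes, and it was one of the 2 lower genes whose genotypes overlapped.

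Of the 6 lower genes without overlap, Asns, which makes asparagine, had scaled counts of 1148, 1106 and 1196 in WT and 806.1, 937.4 and 940.2 in Slc6a4-/-. All Slc6a4-/- samples lay well below all WT samples (log2 fold change -0.36 ± 0.10 SE, adjusted p = 0.104 in limma). The others were the transcription factor gene Atf5 (-0.34), the folate enzyme gene Mthfd2 (-0.29) and the amino acid transporter genes Slc7a3 (-0.42), Slc1a4 (-0.35) and Slc43a2 (-0.29). Mthfd2 was barely separate, with 229.64 scaled counts in WT sample 2 and 229.5 in Slc6a4-/- sample 2. For Atf5 too the gap was narrow, between 170.6 in WT sample 1 and 163.2 in Slc6a4-/- sample 3. The other 2 genes of the list had higher means in Slc6a4-/-. Slc7a11, the cystine transporter that feeds glutathione synthesis, had a log2 fold change of 0.64 with overlap between genotypes, and the eIF2 kinase gene Eif2ak2 had 0.48 without overlap.

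Of the 8 lower genes of the list, 7 were lowest in Slc6a4-/- sample 1 and 7 highest in WT sample 3, and Chac1 was among both. The median log2 fold change of the list was -0.22 without Slc6a4-/- sample 1 and -0.40 without Slc6a4-/- sample 3, and the count of lower genes was 8 in each fit that left out 1 sample. With the library scalings the list median moved as the table median did, to -0.47 with the median of ratios and -0.14 without scaling. Genes of the list that are not in the table, such as Atf4, Atf3 and Ddit3, were not analysed here.

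Of the 10 genes, 8 had a RefSeq promoter window, and the composite C/EBP-ATF motif occurred in 4 of them, Chac1, Asns, Slc7a11 and Slc1a4. It occurred in 3.97% of all windows, which is a share of windows and not of genes, since some genes have several windows. Since the list was made of known genes of this response, its share of matches is no result of these data. The matches of Chac1, Asns and Slc7a11 are shown with 9 bases on either side, in the direction of each gene and with the match in capitals, because genes with lower and with higher means hold it. They lie at chr2:119351040-119351065 (plus strand), chr6:7693216-7693241 (minus strand), chr3:50443663-50443688 (minus strand) and chr3:50443644-50443669 (minus strand) of GRCm38.p6.
Chac1: tccctgccgTTGCATCActcctgcca
Asns: ccagccacaTGATGAAActtcccgca
Slc7a11, farther from the start: tcatgtggcTGATGCAAacctggaga
Slc7a11, nearer to the start: ctggagaatTTGCATCAtcatgcagc
Asns had the lowest unadjusted p of the lower genes of the list and Slc7a11 a higher mean in Slc6a4-/-, so that the motif occurred in genes of both directions. The RefSeq window of Jund belongs to a start upstream of the GENCODE gene start and held no match to this motif, to TGANTCA, the core motif of AP-1 (7.81% of all windows), or to the STAT motif, in these letters.

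AP-1 and related injury genes, the setting of Jund, were followed with a list of 29 genes, of which the table held 9. Of these, 8 had lower means in Slc6a4-/-, 7 of them without overlap, beside 24.1% of the table, and the median log2 fold change was -0.35. None passed an adjusted p of 0.05 in limma, and 6 had an unadjusted p below 0.05, all lower. Lower means at an unadjusted p below 0.05 were found in 15.0% of the table. The count of 6 was also found with voom weights, but it was 2 without WT sample 2, 3 without WT sample 1, Slc6a4-/- sample 1 or Slc6a4-/- sample 2, 2 without library scaling, and 8 with either other scaling. Jund was the only Jun or Fos family gene of the list in the table, and Jun, Fos and Atf3 were not analysed here.

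The largest fold change of the lower genes was that of Cdkn1a, the cell cycle inhibitor p21, with scaled counts of 50.6, 75.9 and 48.3 in WT and 25.6, 29.6 and 20.4 in Slc6a4-/-. All WT samples stood above all Slc6a4-/- samples (log2 fold change -1.16 ± 0.30 SE, adjusted p = 0.104 in limma). Jund came next, followed by the heat shock gene Hspa1b (-0.46), the CREB family gene Creb5 (-0.43), the transcriptional coregulator gene Cited2 (-0.35), the neurotrophin receptor gene Ngfr (-0.28) and Rhob (-0.22). Hspa1b and Hspa1a are near-identical copies, and their counts are uncertain.

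The JAK-STAT3 cytokine response, which Socs3 restrains, was followed with a list of 38 genes, of which the table held 11. It was split, with 5 lower means, all without overlap, and 6 higher means, 1 of them without overlap. In the table, 24.1% of genes were lower and 34.5% higher without overlap. The median log2 fold change was 0.40, and 0.56 for the 10 genes other than Socs3. The median of all 11 was 0.23 without Slc6a4-/- sample 2 and 0.24 with the median of ratios. None passed an adjusted p of 0.05 in limma, and 5 had an unadjusted p below 0.05, 2 lower and 3 higher, close to the 45.9% of the table. The count of 5 was also found with voom weights, and it was 2 without Slc6a4-/- sample 1. It was 3 without WT sample 2, WT sample 3, Slc6a4-/- sample 2 or Slc6a4-/- sample 3. Over all 701 genes the count was 322 in the reported fit, 331 with voom weights and 225 without Slc6a4-/- sample 1. It was 122 and 179 without WT samples 2 and 3, and 172 and 296 without Slc6a4-/- samples 2 and 3.

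On the side of Socs3 were Cebpd (log2 fold change -0.48), the NF-kappaB cofactor gene Bcl3 (-1.13) and the cytokine gene Il1a (-1.43). Bcl3 had only 7.06 to 33.0 scaled counts and Il1a only 1.02 to 17.9. Bcl3 was highest in WT sample 1, and its gap was narrow, between 12.5 in WT sample 2 and 10.2 in Slc6a4-/- sample 2. Also on this side was the intermediate filament gene Gfap (-0.39), a marker of reactive glia. Gfap had 2153, 1556 and 1791 scaled counts in WT and 1373, 1544 and 1254 in Slc6a4-/-, and here too the lowest WT and the highest Slc6a4-/- sample were close to each other. On the other side, the gene of the interleukin-1 receptor antagonist, Il1rn, had 6.60, 4.16 and 8.40 scaled counts in WT and 27.3, 14.8 and 18.4 in Slc6a4-/-, without overlap (log2 fold change 1.52, adjusted p = 0.104 in limma). The acute phase gene Serpina3n, also a marker of reactive glia, had a log2 fold change of 1.01 with overlap.

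WT sample 1, the high sample of Socs3, stood out in both directions of this list. Of the 5 lower genes, 4 were highest in WT sample 1, and of the 6 higher genes, 5 had their highest WT value in that sample. Within WT, most genes of the list were thus highest in WT sample 1, and Socs3 was one of them, whereas between genotypes they went either way.

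**Figure D3:**
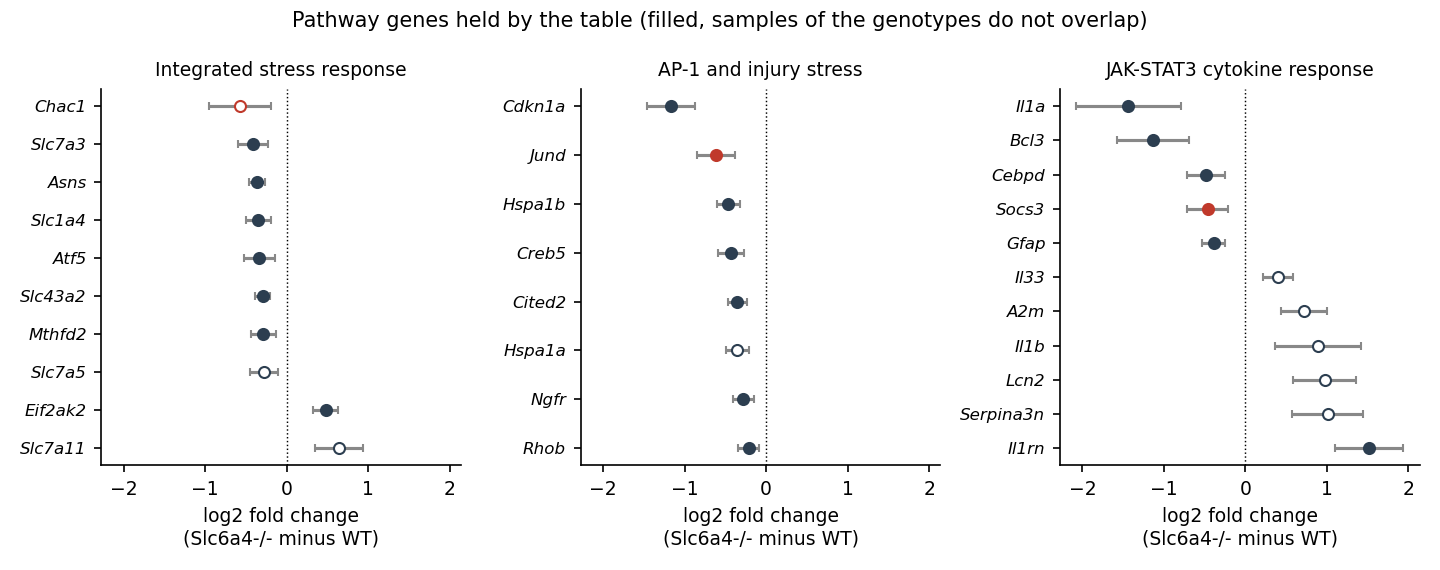
Log2 fold change (Slc6a4-/- minus WT, horizontal axis) with standard errors for the genes of the lists that the table holds (vertical axis), with the 3 genes described here in red and filled points where samples of the genotypes do not overlap. Means lie below 0 for 8 of 10 genes in the integrated stress response list and 5 of 11 in the JAK-STAT3 list; the AP-1 panel draws 8 of its 9 genes, all below 0.

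**Figure D4:**
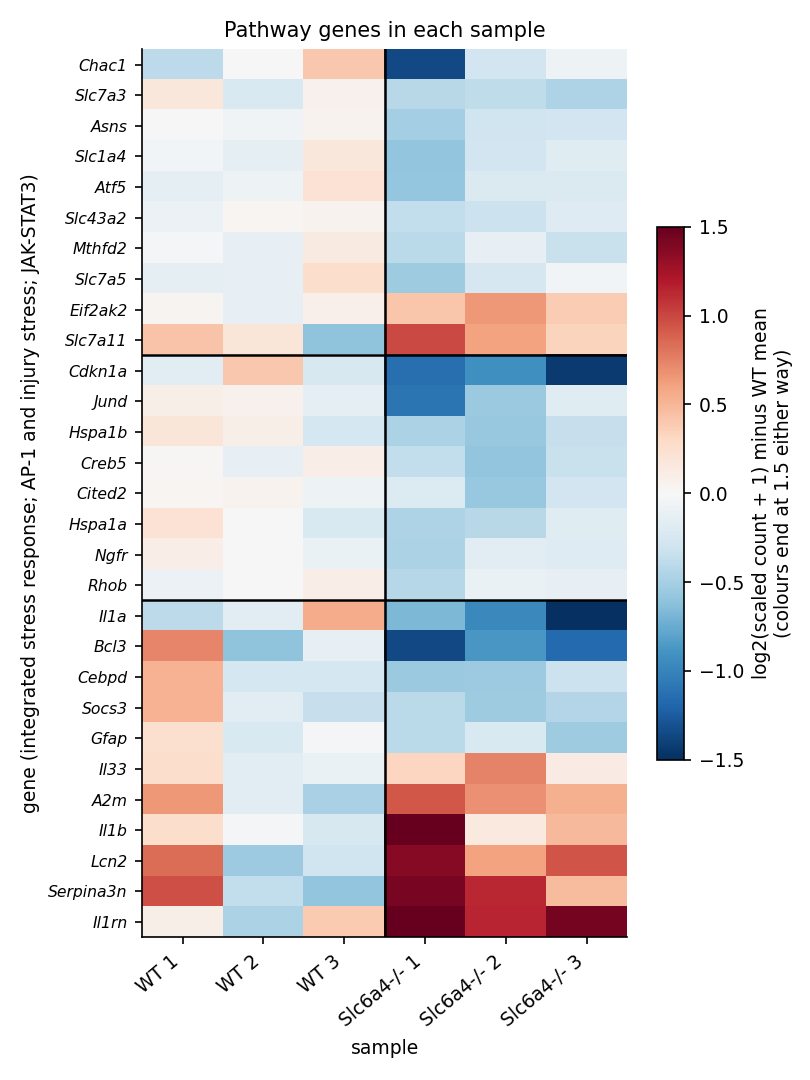
Log2(scaled count + 1) minus the WT mean for the list genes (rows, with 8 of the 9 AP-1 genes drawn) in each sample (columns), in colours that end at 1.5 either way; heavy lines separate the lists and the genotypes. Slc6a4-/- sample 1 is lowest for 7 of the 8 lower integrated stress response genes, and WT sample 1 is the highest sample for 4 of the 5 lower JAK-STAT3 genes, Socs3 included.

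All 3 genes had a GC content above the table median of 50.9%. Over the longest transcript it was 67.2% for Jund, 58.7% for Socs3 and 57.4% for Chac1. These were higher than in 99.1%, 87.3% and 83.0% of the 701 genes. Across the 701 genes, which are not independent, the GC content and the log2 fold change had a Spearman's rho of -0.23. Pearson's r of the other 700 genes with each of the 3 rose with their GC content. Spearman's rho of that relation was 0.37 for Jund, 0.29 for Chac1 and 0.26 for Socs3. All 10 genes with a GC content of at least 65%, a bound chosen after the values were seen, had lower means in Slc6a4-/-, beside 294 of the other 691 (42.5%). Their median log2 fold change was -0.68, and Jund, at -0.61, was one of them.

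The spread of Jund within Slc6a4-/- went the same way. The log2 ratio of Slc6a4-/- sample 3 to sample 1 was 0.92 for Jund. Its median was 1.37 over the 10 genes of highest GC content, Jund included, and 0.04 over the other 691. The part of base composition in the values of Chac1, Jund and Socs3 was not tested.

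**Figure D5:**
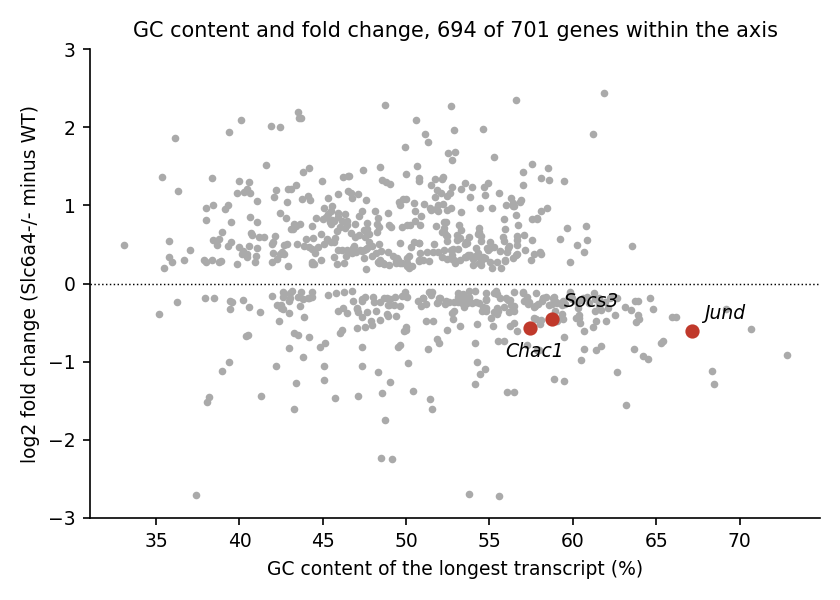
GC content of the longest transcript (percent, horizontal axis) and log2 fold change (Slc6a4-/- minus WT, vertical axis), 1 point per gene for the 694 of 701 genes within the axis. Jund lies in the group of genes with at least 65% GC, a bound chosen after the values were seen. All genes of that group, Jund included, have lower means in Slc6a4-/-. Chac1 and Socs3, also above the median GC content, lie among genes of both directions.

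Markers of other cells that the table holds are given beside these values, and none of them passed an adjusted p of 0.05 in limma, where the unadjusted p was below 0.05 for 4 of 8 myeloid and 3 of 5 pigment cell markers, all higher in Slc6a4-/- (31.0% of the table). With voom weights these counts were 3 and 4, and with 1 sample left out they ran from 1 to 7 and from 0 to 5. Over all 701 genes the count in either direction ran from 122 to 357 with 1 sample left out. Of 14 myeloid markers the table held 8, of which 7 had higher means in Slc6a4-/- (56.6% of the table), 5 without overlap (34.5% of the table), with a median log2 fold change of 0.87. Their summed scaled counts were 706.0 to 780.4 in WT and 808.6 to 899.6 in Slc6a4-/-, and Ccr2 was at 0 in 1 WT library. All 5 of the 9 pigment cell markers in the table had higher means, with sums of 931 to 2244 in WT and 1993 to 3765 in Slc6a4-/-.

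Of the cells in which stress after crush is best known, the table held 1 of 10 RGC markers, Nefl (log2 fold change -0.18, with overlap), and 1 of 9 markers of Müller glia and astrocytes, Gfap. The 4 of 8 photoreceptor markers went 2 each way, and the table held 2 of 4 red blood cell genes, both with higher means. Since the rows of most markers are not among these 701 genes, the cell makeup of the samples cannot be read from them. The part of cell makeup in the values of Chac1, Jund and Socs3 was not tested.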

How the data were processed

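Per the labels and the study's methods, stranded total RNA libraries with reduced ribosomal RNA were sequenced as paired reads, and the authors used CLC Genomics Workbench to map them to GRCm38 and to count them over genes. The deposited counts, not normalized, were written with commas between digits, which were removed, and 25 blank lines were skipped. Of the authors' own comparison the table holds fold changes and p-values, which were not used. The authors also deposited 1 mean RPKM per gene, that of whichever genotype had more.

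Library totals were recovered by least squares from those RPKM values, the counts and exon lengths of GENCODE M21, which matched all 701 identifiers. Of 256 and 277 genes higher in WT and Slc6a4-/- with an RPKM of at least 0.5, 123 and 96 matched within 0.3% plus an allowance for the rounding of the RPKM. The totals had standard errors of 0.117% to 0.172%, computed from the matching genes only. The RPKM of Chac1, Jund and Socs3 was computed with these totals. Sums over the table, 1051620 to 1427001 counts per sample, are not the depth. Genotypes were compared with limma 3.58.1 in R 4.3.3 (lmFit, eBayes with trend) on log2(scaled count + 1), without a filter on low counts, two-sided, with Benjamini-Hochberg adjustment over the 701 genes. Fold changes are on that scale, which understates changes of low genes. A count model was planned but not run, because the commas kept the columns from being taken as counts. The test was tested on simulated data with the same variation beyond counting error for every gene, which does not copy the spread of Chac1, Jund or Socs3. Since every gene had been selected on these samples, adjusted p-values are no transcriptome-wide rates. Nothing says how the pools of mice were spread over litters or days, so that p-values measure only the spread between these samples. Single genes were also compared by exact two-sided permutation tests.

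Alternatives were each sample left out, a replicate block, other library scalings, pseudocounts of 0.5 and 10, a mean scaled count of at least 100, voom weights and eBayes without trend. Named genes were Chac1, Jund, Socs3, Slc6a4, the 5 genes most like each of the first 3 by Pearson's r, and the genes of each list that were among its 4 largest changes or whose genotypes did not overlap. The values of 1 list gene are not reported here. The genes and lists were chosen with earlier results of these data known. Promoter windows were those of RefSeq on GRCm38.p6, found for 508 of the 701 genes.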

Additional observations from a re-analysis of the deposited data

How the results depend on the processing

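Chac1, Jund, Socs3 and Slc6a4 kept their direction and their side of an adjusted p of 0.05 under all 15 alternatives. The count of genes of the table past an adjusted p of 0.05, 9 in the reported fit, was 15 with the replicate block, 160 without library scaling and 43 without the trend, and ran from 4, without WT sample 2, up to 174 where WT sample 1 was the one left out. The count at an unadjusted p below 0.05, 322, was 194 with a mean scaled count of at least 100, where fewer genes were tested, and ran from 122 (without WT sample 2) to 357 with 1 sample left out. The counts of list genes past an adjusted p of 0.05, 0 in each list, became 1 for the integrated stress response without library scaling, 1 for AP-1 with the replicate block and without the trend, and 1 for JAK-STAT3 without library scaling and without the trend. With 1 sample left out they ran from 0 to 1 for AP-1 and from 0 to 3 for JAK-STAT3, both highest without WT sample 1. Beyond these constructions the cause was not tested. The replicate numbers are not stated to mark a shared litter or day. Same-numbered samples had correlations of 0.25, -0.16 and 0.08 of their deviations from the genotype means, and not every sample correlated best with its own number, so the block adjusted p-values of Chac1 (0.105), Jund (0.0981) and Socs3 (0.133) rest on a shared number only. The block was also the fit in which Chac1 had an unadjusted p below 0.05.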
